A study of Mus musculus with 72 samples.

Results

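Transcripts of 5 genes that move water, gases and a signalling lipid across the blood cell membrane were followed in whole blood of mice that drank water with lead (Pb): Aqp1, Car1, Car2, Rhag and Mfsd2b. The genes were chosen by name, with earlier results of these data known. Each was read from the probe sets that the platform annotation gives to that symbol alone, and where a gene had several, the one with the highest mean over the 72 arrays was used. This gave 6 probe sets for the 5 genes, of 18193 genes with such a probe set and 12588 genes tested. Each of the 5 passed the filter on low values, which asked that at least 7 arrays exceed 4.14, the middle of the whole value table. The mice were female Balb/c mice, and 9 weeks is the age given for every sample of both collections. For 2 weeks they received lead acetate trihydrate in their water, with 0 µg/mL for controls, 5 µg/mL for the low dose and 50 µg/mL for the high dose, and for another 2 weeks every mouse drank plain water. Submandibular blood of 7 control, 15 low-dose and 13 high-dose mice was taken when the recovery ended, and of 7 control, 15 low-dose and 15 high-dose mice when the exposure ended. The exposed mice were bled at both times, and whether the same 7 controls were is not stated. Globin transcripts were depleted before amplification, and the arrays give 1 log2 value per probe set, so a difference of 1 is a doubling in signal. These values compare a gene between arrays, not one gene with another.

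Red cells carry carbon dioxide mostly as bicarbonate. Carbonic anhydrases in their cytosol make bicarbonate from carbon dioxide and water, and the anion exchanger Slc4a1 carries it out. Aqp1 is the water channel of the red cell membrane and also passes carbon dioxide. Car1 and Car2 are cytosolic carbonic anhydrases, of which Car2 is the faster enzyme. Rhag is the glycoprotein that anchors the Rh complex in the membrane and conducts ammonia and carbon dioxide. Mfsd2b exports sphingosine-1-phosphate, a lipid that guides lymphocytes and supports the vessel wall, from both red cells and platelets. Mature red cells have no nucleus, so their transcripts in blood are those still held by young red cells, the reticulocytes.

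Promoter windows from RefSeq on the GRCm38.p6 build were at hand for Aqp1, Rhag and Mfsd2b, and are shown because Aqp1 and Mfsd2b were called between dose groups and Rhag was the member that varied most closely with Aqp1. Each spans 300 bases around the gene's start, most of them before it, and is written 5′ to 3′ on the gene's strand. The Aqp1 window lies at chr6:55336049-55336348 on the plus strand, that of Rhag at chr17:40810899-40811198 on the plus strand, and that of Mfsd2b at chr12:4874310-4874609 on the minus strand. Capitals mark matches on either strand to motifs of 2 erythroid factor families: GATA, as AGATAA or with its first letter changed TGATAA, or with its last letter changed AGATAG, or with both changed TGATAG, and KLF, as CCNCNCCC.
Aqp1: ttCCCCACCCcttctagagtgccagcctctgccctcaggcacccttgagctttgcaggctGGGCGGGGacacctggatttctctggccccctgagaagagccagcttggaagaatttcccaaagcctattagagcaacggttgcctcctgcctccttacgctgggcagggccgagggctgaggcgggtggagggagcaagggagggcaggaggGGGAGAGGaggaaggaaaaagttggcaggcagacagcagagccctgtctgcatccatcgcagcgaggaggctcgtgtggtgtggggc
Rhag: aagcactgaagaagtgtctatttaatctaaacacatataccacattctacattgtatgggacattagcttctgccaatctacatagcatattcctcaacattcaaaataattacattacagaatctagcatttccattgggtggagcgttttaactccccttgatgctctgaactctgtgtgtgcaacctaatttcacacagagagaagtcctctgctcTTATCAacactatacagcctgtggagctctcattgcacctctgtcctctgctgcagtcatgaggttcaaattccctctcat
Mfsd2b: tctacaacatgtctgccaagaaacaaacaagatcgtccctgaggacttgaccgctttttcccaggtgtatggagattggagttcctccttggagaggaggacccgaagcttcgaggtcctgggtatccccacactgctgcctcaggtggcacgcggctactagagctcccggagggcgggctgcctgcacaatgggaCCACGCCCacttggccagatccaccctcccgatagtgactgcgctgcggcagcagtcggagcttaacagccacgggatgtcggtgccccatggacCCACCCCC
The Rhag window holds 1 GATA match, TTATCA, read on the minus strand 31 bases before the start, and 0 KLF matches. The Aqp1 window holds 3 KLF matches, of which the nearest begins 37 bases before the start, and 0 GATA matches. The Mfsd2b window holds 2 KLF matches, 53 bases before the start and 43 after it, and 0 GATA matches. Of 32851 RefSeq windows of the same length, 29.8% hold a GATA match and 49.5% a KLF match, so single matches are common. Car1 and Car2 are neighbours on chromosome 3, in a row of carbonic anhydrase genes that runs Car13, Car1, Car3, Car2.

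Markers of both cell types that could carry these transcripts gave levels toward the top of the arrays, where the highest value was 14.14: the mean level was 13.8 for Alas2, which starts heme synthesis in erythroid cells, 12.1 for Slc4a1, and 12.9 for Pf4, a platelet chemokine. Of 32 erythroid genes listed, 26 were on the array under their own symbol and all 26 were tested, as were 20 of 22 platelet genes. The bleeding site could add skin, muscle or gland cells of the face, and of 12 such markers 7 were tested, with list medians between -0.13 and 0.11 over the 11 comparisons. Array medians lay between 4.05 and 4.22, and no array had the values of another.

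Aqp1 levels were highest in high-dose blood after exposure and lowest in control blood after recovery. After recovery they had a lowest, median and highest value of 8.33, 8.72 and 9.00 in controls, of 8.13, 8.85 and 9.22 at the low dose, and of 9.02, 9.16 and 9.47 at the high dose. After exposure these were 9.12, 9.39 and 9.66 in controls, 8.46, 9.15 and 9.57 at the low dose, and 9.13, 9.51 and 10.4 at the high dose. The high-dose group had the highest median at both times, and after recovery its lowest array stood just above the highest control. In the order of the 6 group means (9.55 high exposure, 9.39 control exposure, 9.21 high recovery, 9.10 low exposure, 8.83 low recovery, 8.71 control recovery), no neighbouring groups differed by more than the larger of their 2 SDs.

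Mfsd2b, the lipid exporter, also had its highest mean in high-dose exposure blood and its lowest in control recovery blood. After recovery its lowest, median and highest levels were 6.61, 7.27 and 7.72 in controls, 7.10, 7.55 and 8.23 at the low dose, and 7.07, 7.77 and 8.10 at the high dose. After exposure they were 7.63, 7.72 and 8.19 in controls, 7.02, 7.52 and 7.83 at the low dose, and 7.47, 7.82 and 8.17 at the high dose. The groups of lowest median were 2, the low dose after exposure and the controls after recovery. The order of the means was 7.86 for high exposure, 7.81 for control exposure, 7.72 for high recovery, 7.56 for low recovery, 7.50 for low exposure and 7.21 for control recovery, and again no neighbours differed beyond the larger SD. The second Mfsd2b probe set, with a mean level of 5.07, likewise ran between 4.90 ± 0.20 in control recovery blood (SD, n = 7) and 5.30 ± 0.17 in high exposure blood (SD, n = 15).

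Rhag, the Rh complex anchor, had SDs between 0.33 and 0.50 within groups. After recovery the lowest, median and highest levels were 6.21, 6.97 and 7.29 in controls, 6.10, 6.92 and 7.51 at the low dose, and 6.61, 7.27 and 7.97 at the high dose. After exposure they were 7.10, 7.79 and 8.02 in controls, 6.81, 7.33 and 7.91 at the low dose, and 6.89, 7.73 and 8.54 at the high dose. Recovery medians were lower at every dose, with overlap between the arrays of both times. Among neighbours in the order of the means, only high recovery (7.29) and low recovery (6.83) differed by more than the larger SD.

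Car2, the fast carbonic anhydrase, was the member with the widest range. After recovery the lowest, median and highest levels were 10.27, 10.68 and 11.32 in controls, 9.15, 10.64 and 11.85 at the low dose, and 9.80, 10.90 and 12.18 at the high dose. After exposure they were 10.94, 11.61 and 12.15 in controls, 11.37, 11.74 and 12.28 at the low dose, and 10.38, 11.69 and 12.06 at the high dose. The 3 recovery means (10.95 high, 10.78 control, 10.61 low) stood below the 3 exposure means (11.75 low, 11.63 high, 11.53 control), and no neighbours in that order differed beyond the larger SD.

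Car1, the slower carbonic anhydrase, had a mean level of 4.78 over the 72 arrays, and 22.7% of the tested genes had a lower mean. After recovery its lowest, median and highest levels were 4.09, 4.37 and 4.75 in controls, 3.51, 4.27 and 5.05 at the low dose, and 3.97, 4.54 and 5.20 at the high dose. After exposure they were 4.54, 4.86 and 5.53 in controls, 4.59, 5.10 and 5.46 at the low dose, and 4.74, 5.33 and 5.83 at the high dose. It lay above 4.14 in 66 of 72 arrays, and the arrays below that level were all recovery arrays. In the order of its means, the break of 0.46 between control exposure (4.98) and high recovery (4.52) was the only one beyond the larger SD.

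**Figure D1:**
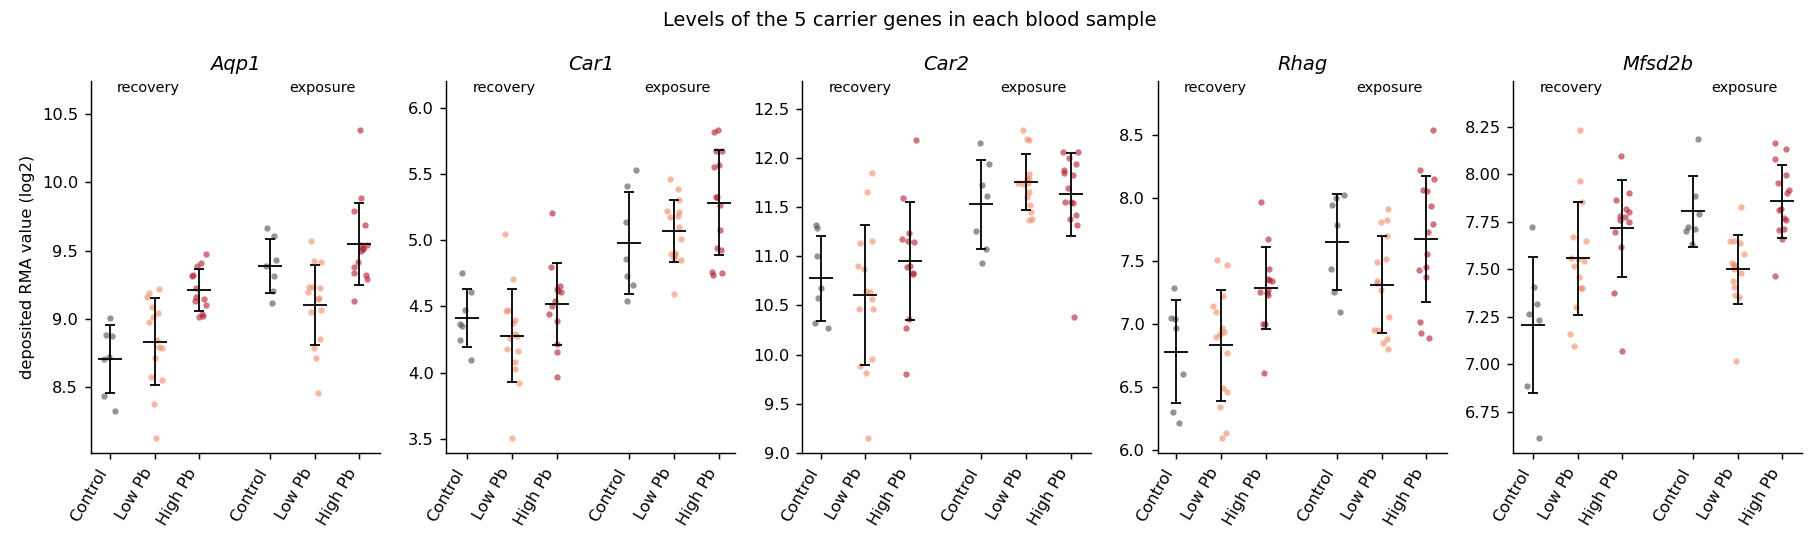
Deposited log2 RMA value (vertical axis) of the 5 genes in each of the 72 blood samples, by dose group within the recovery and the exposure collection; points are arrays, bars are the mean ± SD of 7 to 15 arrays. The high-dose recovery arrays of Aqp1 all lie above the recovery controls, and the low-dose exposure arrays of Mfsd2b lie low among the exposure groups.

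After exposure, high-dose blood held more Aqp1 and Mfsd2b transcript than low-dose blood. The Aqp1 level averaged 9.55 ± 0.30 in high-dose blood and 9.10 ± 0.29 in low-dose blood (SD, n = 15 each), a log2 difference of 0.45 ± 0.10 (SE) or 1.36-fold, with an adjusted p of 0.000654 in limma. Mfsd2b averaged 7.86 ± 0.19 in high-dose and 7.50 ± 0.18 in low-dose blood, a difference of 0.36 ± 0.09 or 1.28-fold (adjusted p = 0.00278). The groups still overlapped: 4 of 15 high-dose arrays lay above every low-dose array for Aqp1 and 7 of 15 for Mfsd2b. Rhag pointed the same way without passing, at 0.36 ± 0.14 (adjusted p = 0.0658), and passed when any 1 of 6 arrays was left out (low-dose replicate 9, 11 or 12, or high-dose replicate 4, 9 or 12, with differences of 0.40 to 0.42 and adjusted p from 0.0324 to 0.0499). The carbonic anhydrases stayed below the threshold, Car1 at 0.21 ± 0.11 (adjusted p = 0.174) and Car2 at -0.12 ± 0.18 (adjusted p = 0.65). With the mean of the erythroid list as a covariate Car2 was called lower at the high dose (-0.44, adjusted p = 1.28e-05). In all, 2 of the 5 genes were called higher and 0 lower, where 18.7% of all genes tested were called and 6.04% were called higher. In bulk blood, fewer cells of a type and less RNA per cell cannot be told apart.

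After exposure no member passed the test against control at either dose. At the high dose the 5 log2 differences lay between 0.03 for Rhag and 0.30 for Car1, and Car1 alone had an unadjusted p under 0.05 (0.30 ± 0.14, p = 0.0379, adjusted p = 0.49 in limma). At this dose 0.0238% of all genes were called and 9.48% had an unadjusted p under 0.05. At the low dose 3 of the 5 pointed down: Mfsd2b at -0.31 ± 0.11 (adjusted p = 0.164), Aqp1 at -0.29 ± 0.12 (adjusted p = 0.267) and Rhag at -0.34 ± 0.18 (adjusted p = 0.458). For Mfsd2b 11 of 15 low-dose arrays lay below every control array, while its second probe set gave -0.09 (adjusted p = 0.726). All 20 platelet genes tested were lower here too (median -0.29), and with the mean of the platelet list as a covariate the Mfsd2b difference was 0.02 (adjusted p = 0.953). None of the 5 was called, where 1.3% of all genes were, and 2 of the 5 against 12.4% of all genes had an unadjusted p under 0.05. With array weights Mfsd2b (-0.33, adjusted p = 0.0151) and Aqp1 (-0.32, adjusted p = 0.0475) passed, in a fit that called 11.2% of all genes.

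After recovery the same pair, Aqp1 and Mfsd2b, was higher in high-dose mice than in controls. The Aqp1 level averaged 9.21 ± 0.16 in high-dose blood (SD, n = 13) and 8.71 ± 0.25 in control blood (SD, n = 7), a log2 difference of 0.50 ± 0.12 or 1.42-fold (adjusted p = 0.0398 in limma). The 2 groups did not overlap for Aqp1, with 13 of 13 high-dose arrays above the highest control. Mfsd2b averaged 7.72 ± 0.25 in high-dose and 7.21 ± 0.36 in control blood, a difference of 0.51 ± 0.11 or 1.42-fold (adjusted p = 0.0286), with 9 of 13 high-dose arrays above all controls. By p, Mfsd2b was in place 9 and Aqp1 in place 30 of the 12588 genes. Rhag differed by as much, 0.51 ± 0.19, but with a larger error did not pass (adjusted p = 0.249), and Car1 (0.11 ± 0.15) and Car2 (0.17 ± 0.23) had intervals that held 0. So 2 of 5 members were called, both higher, where 0.429% of all genes were called and 0.405% were called higher.

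Both calls lay near the threshold. They were lost when each array was centred on its median (0.49, adjusted p = 0.0722 for Aqp1 and 0.50, adjusted p = 0.0525 for Mfsd2b) and with the difference between 3′ and 5′ control probe sets as a covariate (0.47, adjusted p = 0.0665 for Aqp1 and 0.48, adjusted p = 0.051 for Mfsd2b). Aqp1 was also lost without control replicate 3, 5, 6 or 7 or without high-dose replicate 1, 5, 7, 9, 10, 12 or 13 (log2 differences 0.44 to 0.55, adjusted p 0.0522 to 0.23), and Mfsd2b without control replicate 3, 5 or 7 or high-dose replicate 5, 9 or 12 (0.41 to 0.51, adjusted p 0.0512 to 0.215). The second Mfsd2b probe set gave a smaller difference of 0.26 that did not pass (adjusted p = 0.115).

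At the low dose after recovery no member was called. Against control, Mfsd2b had the highest difference of the 5, 0.35 ± 0.11 (unadjusted p = 0.00197, place 6 among all genes, adjusted p = 1 in limma), and the other 4 lay between -0.17 and 0.13. The second Mfsd2b probe set gave 0.05 (adjusted p = 1), the Mfsd2b difference was 0.11 with the platelet mean as a covariate, and all 20 platelet genes were higher as well (median 0.23). In this comparison 0% of all genes were called, and 1 of the 5 against 2.34% of all genes had an unadjusted p under 0.05. Between high and low dose after recovery, all 5 were higher at the high dose, led by Rhag at 0.46 ± 0.15 (adjusted p = 0.222) and Aqp1 at 0.38 ± 0.10 (adjusted p = 0.15). Again 0% of all genes were called, and 3 of the 5 against 14% of all genes had an unadjusted p under 0.05. The 2 comparisons with control at each time share their control arrays.

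**Figure D2:**
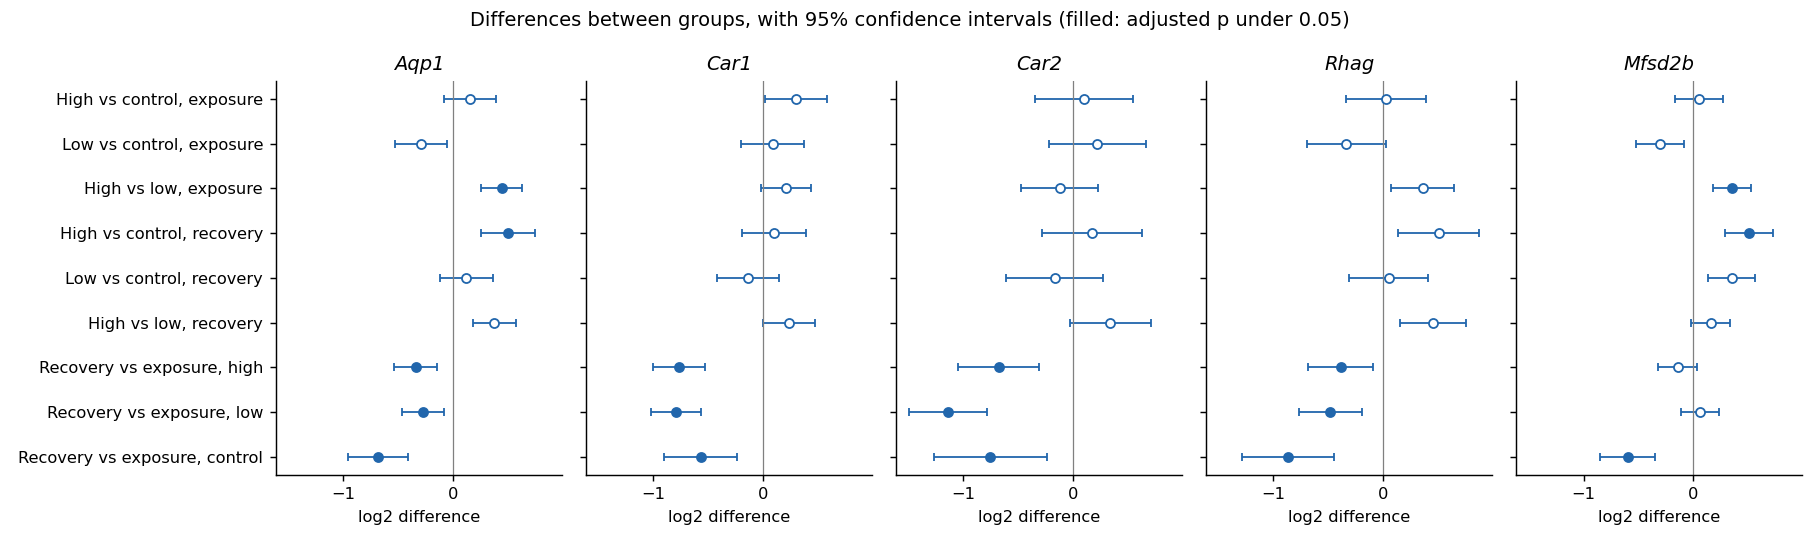
Log2 differences of the 5 genes (horizontal axis) for the 9 comparisons between groups (rows), with 95% confidence intervals; filled points passed an adjusted p of 0.05. Aqp1 and Mfsd2b carry the filled points among the dose comparisons, at 0.45 and 0.36 between doses after exposure and 0.50 and 0.51 against control after recovery.

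Recovery blood held less of nearly every member than exposure blood. In controls all 5 fell: Rhag by 0.87 ± 0.21 on the log2 scale (adjusted p = 0.000862 in limma), Car2 by 0.75 ± 0.26 (adjusted p = 0.0186), Aqp1 by 0.68 ± 0.14 (adjusted p = 8.3e-05), Mfsd2b by 0.60 ± 0.13 (adjusted p = 0.000153) and Car1 by 0.57 ± 0.17 (adjusted p = 0.00563). For Aqp1 7 of 7 recovery controls lay below every exposure control, for Rhag and Mfsd2b 6 of 7 each. Of all genes, 36.1% were called in this comparison and 13.6% were called lower. The Car2 call was lost without control exposure replicate 4 (-0.65, adjusted p = 0.0557), and the second Mfsd2b probe set gave -0.16 (adjusted p = 0.15).

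In the exposed mice 4 of the 5 fell and Mfsd2b did not pass. At the low dose the carbonic anhydrases fell most. Car2 fell by 1.14 ± 0.18 to 0.453 of its exposure signal (adjusted p = 2.95e-07 in limma) and Car1 by 0.79 ± 0.11 (adjusted p = 5.45e-08), each with 13 of 15 recovery arrays below every exposure array. Rhag fell by 0.48 ± 0.14 (adjusted p = 0.00475) and Aqp1 by 0.27 ± 0.10 (adjusted p = 0.0167). Mfsd2b differed by 0.06 ± 0.09 (95% interval -0.12 to 0.23, adjusted p = 0.607). Of all genes 44.1% were called and 17.9% were called lower. The exposed mice were bled at both times, and the fit treats their arrays as separate samples because the labels do not tie the numbers to mice. Greater age and an earlier bleeding go with the recovery collection in these mice, and their part was not tested.

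At the high dose the fall was again largest for the carbonic anhydrases. Car1 fell by 0.76 ± 0.12 (adjusted p = 1.84e-07 in limma), with 11 of 13 recovery arrays below every exposure array. Car2 fell by 0.68 ± 0.18 (adjusted p = 0.00166), Rhag by 0.39 ± 0.15 (adjusted p = 0.0271) and Aqp1 by 0.34 ± 0.10 (adjusted p = 0.00338), while Mfsd2b differed by -0.14 ± 0.09 (adjusted p = 0.187). Here 49.2% of all genes were called and 19.8% were called lower. The Rhag call was lost without high-dose exposure replicate 7 or 11 or high-dose recovery replicate 5 (-0.35 to -0.33, adjusted p 0.0508 to 0.0639), and with 18S signal (-0.42, adjusted p = 0.0574) or hybridisation controls (-0.34, adjusted p = 0.056) as a covariate.

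Whether the dose effect itself differed between the times was tested as an interaction. Mfsd2b came nearest: the low-dose effect was higher by 0.66 ± 0.15 after recovery than after exposure (unadjusted p = 6.12e-05, place 13 of all genes, adjusted p = 0.0576 in limma), and the high-dose effect by 0.46 ± 0.16 (unadjusted p = 0.00459, adjusted p = 1). For the low dose the second Mfsd2b probe set gave 0.13 (adjusted p = 0.902), the value with the platelet mean as a covariate was 0.09 (adjusted p = 0.998), and all 20 platelet genes were higher in the same direction (median 0.54). Aqp1 gave 0.41 ± 0.17 at the low dose (adjusted p = 0.351) and 0.34 ± 0.17 at the high dose (adjusted p = 1). For both genes the recovery control group, the lowest of the 6, enters each of these values. None of the 5 passed at either dose, where 0.0238% of all genes were called at the low dose and 0.00794% at the high dose. With an unadjusted p under 0.05 stood 2 of the 5 at each dose, against 8.45% of all genes at the low and 3.43% at the high dose. The low-dose Mfsd2b value passed when any 1 of 10 arrays was left out (control exposure replicate 1, 3 or 4, control recovery replicate 1 or 4, low-dose exposure replicate 12, or low-dose recovery replicate 5, 6, 7 or 10, with values of 0.66 to 0.74 and adjusted p 0.0153 to 0.0496).

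**Figure D3:**
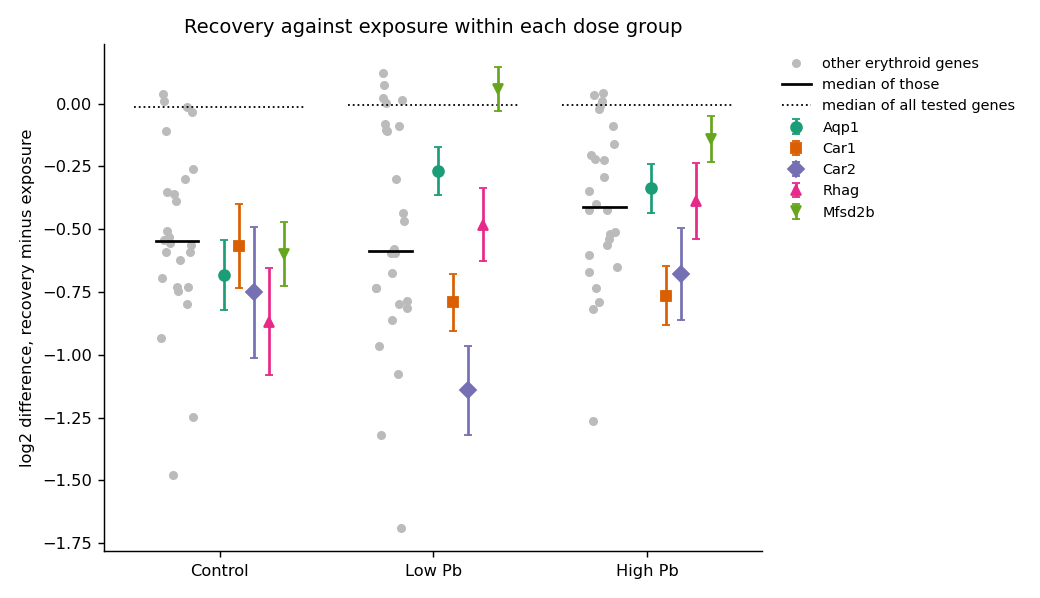
Log2 difference of recovery minus exposure (vertical axis) within the control, low-dose and high-dose groups for the 5 genes (coloured, ± SE) beside the 26 other erythroid genes tested (grey) and their median. Car1 and Car2 lie below the erythroid median at both doses, while Mfsd2b lies at 0.06 in low-dose and -0.14 in high-dose mice.

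Most erythroid genes tested fell together with the members at recovery. Of the 26 erythroid genes, which include no member, 15 fell in controls, 17 at the low dose and 16 at the high dose, and 0 rose. In these comparisons 36.1%, 44.1% and 49.2% of all genes were called, and 13.6%, 17.9% and 19.8% were called lower. The list's median difference was -0.55, -0.59 and -0.41, against -0.012, -0.0040 and -0.0046 over all genes. Epb42, a protein of the red cell membrane skeleton, fell by 1.69 ± 0.23 at the low dose and by 1.27 ± 0.24 at the high dose. Trim10, a gene of red cell maturation, fell by 1.32 ± 0.21 at the low dose, and Gata1, the erythroid and megakaryocyte transcription factor, fell by 0.59 ± 0.09 in controls. Not all showed a fall. Alas2 differed by 0.01 in controls, 0.02 at the low dose and 0.04 at the high dose, and Fech by 0.04, 0.01 and 0.04. The mean level was 13.8 for Alas2 and 13.5 for Fech, and no probe set exceeded 14.14 on any array. Whether a fall of these 2 transcripts could still be seen at so strong a signal was not tested. The carbonic anhydrases stood low within this list: at the low dose only 2 of the 26 fell further than Car2, and at the high dose only 3 fell further than Car1. Mfsd2b stood high in it, with 24 of 26 erythroid genes below it at the low dose and 20 of 26 at the high dose. In controls the places were less apart, with 4 of 26 erythroid genes below Car2, 11 below Car1 and 9 below Mfsd2b. With the erythroid mean as a covariate, the members still called between collections were Aqp1 and Mfsd2b in controls, Car1 and Car2 at the low dose, and Car1 at the high dose.

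Some erythroid genes moved with dose. Between high and low dose after exposure 8 of the 26 rose and 0 fell (median 0.21, against -0.03 over all genes), where 6.04% of all genes were called higher. Those with the smallest p were the transcription factors Gata1 (0.41 ± 0.06), Tal1 (0.40 ± 0.08), Gfi1b (0.33 ± 0.07) and Nfe2 (0.29 ± 0.07), which megakaryocytes also use. Against control after recovery, Gata1 (0.46 ± 0.08) and Nfe2 (0.36 ± 0.09) were the only 2 that rose (median 0.31, against -0.03 over all genes). There 0.405% of all genes were called higher. Aqp1 stood high in the list in both comparisons, above 25 of 26 erythroid genes in the first and above 24 of 26 in the second. Rhag and Mfsd2b did too, each above 22 of 26 in the first and 24 of 26 in the second, while Car2 was below all 26 in the first.

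Platelet genes moved with dose in the comparisons where Mfsd2b and Aqp1 did. After exposure 15 of 20 platelet genes rose at the high against the low dose (median 0.30, against -0.03 over all genes), where 6.04% of all genes were called higher. Among the 15 were Thbs1, a matrix protein of platelet granules (0.64 ± 0.12), F2rl2, a thrombin receptor (0.47 ± 0.08), P2rx1, an ATP-gated channel (0.37 ± 0.08), and Gp6, the collagen receptor (0.36 ± 0.08). Against control after recovery 5 of 20 rose (median 0.36, against -0.03 over all genes), where 0.405% of all genes were called higher. The 5 were led by Gp6 (0.50 ± 0.10), Gp5 (0.50 ± 0.10), Treml1 (0.46 ± 0.11) and P2rx1 (0.41 ± 0.10). The mean of the platelet list, each gene centred over the 72 arrays, ran from -0.21 to 0.46 in high-dose and from -0.68 to 0.12 in low-dose blood after exposure, and from -0.44 to 0.35 in high-dose and from -0.50 to 0.04 in control blood after recovery. Across the 2 collections the list was mixed. In controls 11 platelet genes fell and 2 rose at recovery, at the low dose 2 fell and 6 rose, and at the high dose 4 fell and 4 rose. Of all genes 36.1%, 44.1% and 49.2% were called in these comparisons. At the low dose Vwf, the adhesive multimer, rose by 1.02 ± 0.10 and P2ry12, an ADP receptor, fell by 1.05 ± 0.16.

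The platelet mean was then added to the fit as a covariate, an alternative chosen after the data were seen. With it the Mfsd2b difference between doses after exposure was 0.01 (adjusted p = 0.94 in limma) and that against control after recovery was 0.11 (adjusted p = 0.482). For Aqp1 the values were 0.29 (adjusted p = 0.0542) and 0.33 (adjusted p = 0.351). In these fits 0 of the 5 members were called in either comparison, where 8.98% of all genes were called in the first and 0.00794% in the second, and the fall of Mfsd2b at recovery in controls was no longer called (-0.16, adjusted p = 0.0599). With the erythroid mean as covariate, Mfsd2b stayed past the threshold in both comparisons and Aqp1 in the first (second: 0.34, adjusted p = 0.0768).

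Within groups Aqp1, Car1, Car2 and Rhag were correlated with each other, and Mfsd2b passed the threshold with Aqp1 alone. Each array's value was set against its group mean, and 10 pairs were compared over the 72 arrays, with 100000 permutations of arrays within groups and p adjusted over the 10 pairs. Aqp1 and Rhag (r = 0.70, rho = 0.68), Car1 and Car2 (r = 0.70, rho = 0.66), Car2 and Rhag (r = 0.65, rho = 0.67) and Car1 and Rhag (r = 0.62, rho = 0.63) each had a permutation p of 1e-05, the smallest that the permutations can give, and an adjusted p of 2.5e-05 for both coefficients. Aqp1 correlated less with Mfsd2b (r = 0.46, adjusted permutation p = 6e-05; rho = 0.38, adjusted permutation p = 0.00277) and with Car2 (r = 0.35, adjusted permutation p = 0.00487; rho = 0.37, adjusted permutation p = 0.00301), and the value with Car1 lay between (r = 0.425, adjusted permutation p = 0.000367; rho = 0.50, adjusted permutation p = 4e-05). Mfsd2b showed no correlation past the threshold with Rhag (r = 0.095), Car1 (r = 0.036) or Car2 (r = -0.23), with adjusted permutation p of 0.491, 0.772 and 0.0989 and rho of 0.086, 0.096 and -0.19.

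The 7 relations past the threshold had the same sign within each collection. For the 4 strongest pairs r lay between 0.59 and 0.83 in recovery arrays and between 0.58 and 0.79 in exposure arrays, and between 0.62 and 0.65 without the 2 arrays farthest from the median of the first gene. The correlation of Aqp1 with Mfsd2b was 0.61 in recovery and 0.32 in exposure arrays. For Aqp1 and Car1 r was 0.34 in recovery and 0.49 in exposure arrays, and for Aqp1 and Car2 0.33 and 0.42. Without the 2 outermost arrays these 3 values of Aqp1 were 0.45 with Mfsd2b, 0.46 with Car1 and 0.31 with Car2.

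Set against the marker lists, Car2 followed the erythroid mean most closely (r = 0.93, rho = 0.90), then Rhag (r = 0.82, rho = 0.82), Car1 (r = 0.76, rho = 0.76) and Aqp1 (r = 0.58, rho = 0.60), each with an adjusted permutation p of 2e-05 over 10 relations. Mfsd2b did not follow it (r = -0.10, rho = -0.073, adjusted permutation p = 0.534 and 0.621) and followed the platelet mean instead (r = 0.91, rho = 0.86, adjusted permutation p = 2e-05). In recovery arrays alone that r was 0.93 and in exposure arrays 0.90, in the 6 groups it ran from 0.84 to 0.98, and without the 2 outermost arrays it was 0.88. Aqp1 also had a weaker relation to the platelet mean (r = 0.36, rho = 0.28, adjusted permutation p = 0.00447 and 0.0287), and Car2 an inverse one (r = -0.41, rho = -0.38, adjusted permutation p = 0.00168 and 0.00367). In the 6 groups these 2 ran from -0.11 to 0.60 for Aqp1 and from -0.76 to 0.20 for Car2. The arrays share their processing, so shared error also enters these values. Aqp1, Car1, Car2 and Rhag thus varied from array to array with the erythroid genes, while Mfsd2b showed no such relation past the threshold.

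**Figure D4:**
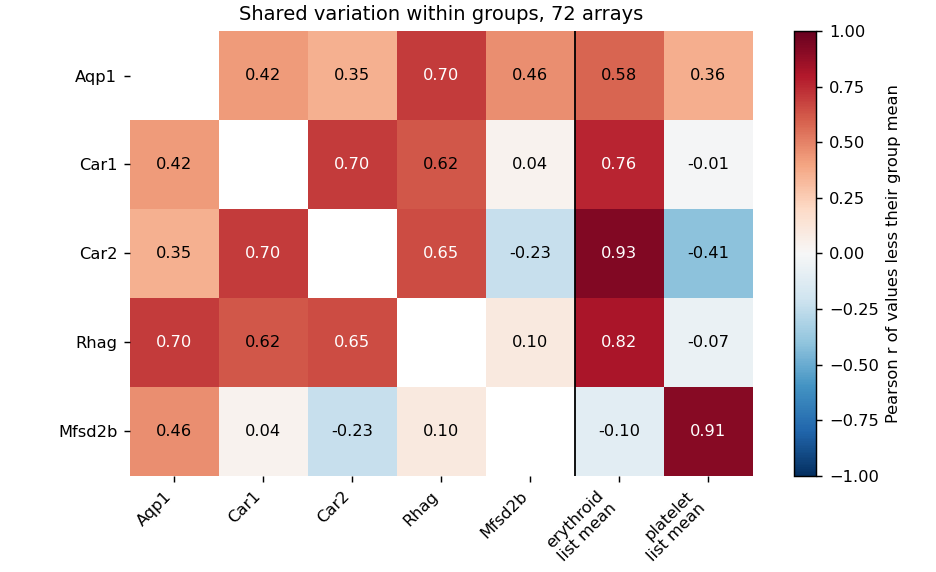
Pearson r (colour and printed value) of the 5 genes with each other and with the means of the erythroid and platelet lists over 72 arrays, after the group mean was taken from each value. Aqp1, Car1, Car2 and Rhag have r of 0.58 to 0.93 with the erythroid mean, and Mfsd2b has 0.91 with the platelet mean. Aqp1 also has 0.46 with Mfsd2b and 0.36 with the platelet mean.

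**Figure D5:**
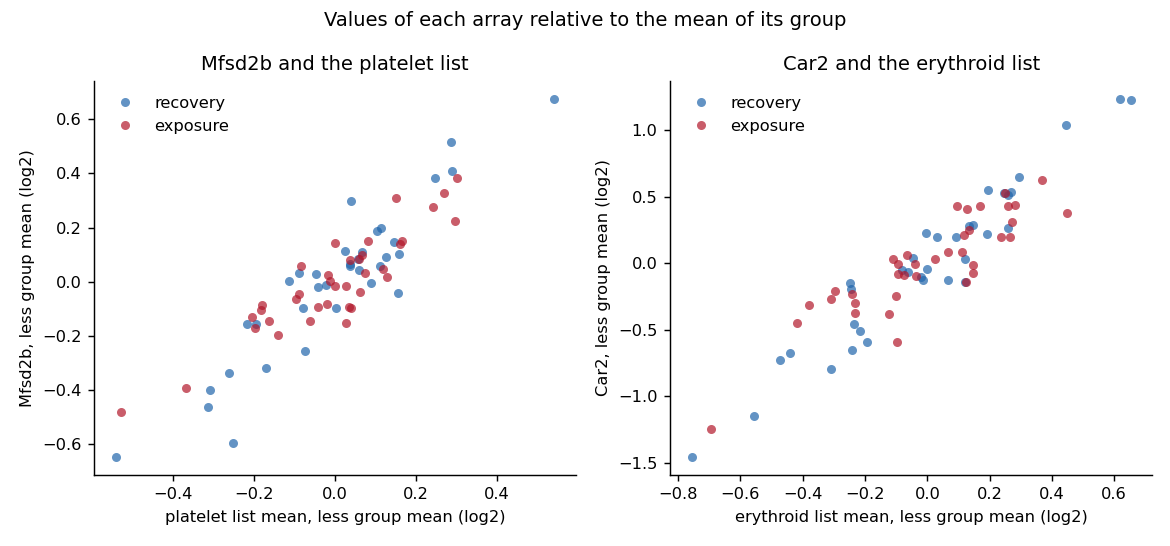
Value of each array less its group mean (log2, both axes) for Mfsd2b against the platelet list mean (left) and Car2 against the erythroid list mean (right), with recovery and exposure arrays in separate colours. Points of both collections lie along 1 rising line in each panel, at r = 0.91 for Mfsd2b and r = 0.93 for Car2.

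The genes most like each member were found by the same r over 11905 named genes. They come from the same values as the list relations, and some belong to the lists, so they are not separate support. Car2 was nearest to Mpp1, a scaffold of the red cell membrane skeleton (r = 0.98), followed by Tmcc2, Trim10, Narf and Snx15, all at r = 0.97. Rhag was nearest to Rhd, its partner in the Rh complex (r = 0.83), and to Icam4, a red cell adhesion molecule (r = 0.82), with Ces2g, Redrum and Abcb4 at 0.81 to 0.82. Aqp1 was nearest to Stom, the membrane protein stomatin (r = 0.79), and Slc16a1, a lactate transporter (r = 0.76), with Birc5, Atpif1 and Creg1 at 0.72 to 0.74. Car1 was nearest to H3c11 and Nudt4 (r = 0.81 each) and to Tab3, Rbm33 and Larp1b (0.79 to 0.80). Mfsd2b was nearest to Slc6a4, the serotonin transporter by which platelets take up serotonin (r = 0.90), then to Alox12, the platelet lipoxygenase (r = 0.88), and to Hpse, Sytl4 and P2rx1 (r = 0.87 each). By likeness to Aqp1, Rhag was in place 9 of 12587 genes, and by likeness to Car2, Mfsd2b was in place 8632.

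Other membrane transporters of red cells moved in part. Of 19 tested from a list of 23, 4 rose at the high against the low dose after exposure and 0 fell: the porphyrin transporter Abcb6 (0.30 ± 0.08), the urate and porphyrin exporter Abcg2 (0.29 ± 0.08), Slc16a1 (0.41 ± 0.12) and the calcium-gated potassium channel Kcnn4 (0.41 ± 0.14). The list's median was 0.10, against -0.03 over all genes, of which 6.04% were called higher. Against control after recovery 0 of the 19 passed, with Kcnn4 at 0.53 ± 0.18 (adjusted p = 0.204 in limma) and Slc16a1 at 0.40 ± 0.15 (adjusted p = 0.282). At recovery 6 fell and 4 rose in controls, 8 fell and 5 rose at the low dose, and 7 fell and 2 rose at the high dose. Of all genes 36.1%, 44.1% and 49.2% were called in these comparisons, and 13.6%, 17.9% and 19.8% were called lower. Slc16a1 fell in each, by 0.97 ± 0.17 in controls, 0.65 ± 0.12 at the low dose and 0.78 ± 0.12 at the high dose, as did Cd47, the membrane signal that protects red cells from macrophages, by 0.42 ± 0.07, 0.28 ± 0.05 and 0.29 ± 0.05. Rhd fell by 0.73 ± 0.21 in controls, 0.80 ± 0.14 at the low dose and 0.60 ± 0.15 at the high dose, beside Rhag.

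Other carbonic anhydrases and aquaporins gave calls between collections only. Of all genes, 36.1% were called between collections in controls, 44.1% at the low dose and 49.2% at the high dose. Of 14 other carbonic anhydrases 6 were tested, and none passed between doses after exposure, between high dose and control after recovery, or between collections in controls. The calls among them were Car12 (-0.23 ± 0.07) and Car15 (0.15 ± 0.05) at the low dose and Car12 (-0.24 ± 0.07), Car3 (-0.64 ± 0.23) and Car15 (0.12 ± 0.05) at the high dose, all between collections. Of 11 other aquaporins 8 were tested. None passed in a dose comparison, and Aqp9, a water and glycerol channel, fell at recovery by 0.42 ± 0.16 in controls, 0.38 ± 0.11 at the low dose and 0.40 ± 0.11 at the high dose. Aqp6 (-0.25 ± 0.10) in controls and Aqp11 at the low (-0.19 ± 0.07) and high dose (-0.18 ± 0.08) were the other aquaporin calls.

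Around Mfsd2b, 22 of 24 genes that make, break down or sense sphingosine-1-phosphate were tested. Between doses after exposure 2 rose and 5 fell (median -0.13, against -0.03 over all genes), where 18.7% of all genes were called. Those that rose were Acer2, an alkaline ceramidase that supplies sphingosine (0.40 ± 0.09), and Mfsd2a, a lipid transporter of the same family (0.23 ± 0.08), and among those that fell were the acid ceramidase Asah1 (-0.24 ± 0.05) and the receptor S1pr1 (-0.25 ± 0.08). Against control after recovery Acer2 was the only call, at 0.49 ± 0.12 (adjusted p = 0.044 in limma). At the low dose after exposure Asah1 was higher than in controls by 0.41 ± 0.07 (adjusted p = 0.000148). At recovery 8 of the 22 rose and 5 fell in controls, 4 rose and 4 fell at the low dose, and 4 rose and 4 fell at the high dose. Of all genes 36.1%, 44.1% and 49.2% were called in these comparisons. The lymphocyte receptor S1pr4 rose by 0.49 ± 0.11 in controls, 0.38 ± 0.07 at the low dose and 0.47 ± 0.08 at the high dose. Sphk2, a kinase that makes the lipid, rose by 0.39 ± 0.07 at the low and 0.51 ± 0.07 at the high dose. Among those that fell were Acer2 (-0.57 ± 0.14) and Plpp3 (-0.39 ± 0.10) in controls, S1pr1 (-0.30 ± 0.08) at the low dose and Mfsd2a (-0.26 ± 0.08) at the high dose.

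Technical measures and other cells moved along some of these comparisons. Recovery arrays had a larger difference between 3′ and 5′ control probe sets (0.79, 0.80 and 0.75 for control, low and high dose) than exposure arrays (0.46, 0.49 and 0.52), and less 18S signal (6.38, 6.33 and 6.43, against 7.00, 7.00 and 7.79). With the 3′ to 5′ difference as a covariate, Car2 (-0.74, adjusted p = 0.0588 in limma) was no longer called in controls, Aqp1 (-0.08, adjusted p = 0.64) and Rhag (-0.45, adjusted p = 0.0622) at the low dose, and Aqp1 (-0.20, adjusted p = 0.14) and Rhag (-0.36, adjusted p = 0.0849) at the high dose, while Car1 was called in all 3. After exposure, hybridisation controls were higher at the high dose (10.2 ± 0.4) than at the low dose (9.81 ± 0.36). The mean of the B cell list was lower at the high dose (-0.74 ± 0.28) than at the low dose (-0.03 ± 0.24) after exposure, and that of the monocyte list was too (-0.29 ± 0.14, against 0.04 ± 0.12). Leukocyte genes moved between the collections as well: 10 of 10 B cell genes tested rose at recovery in controls (median 1.08), 9 of 10 at the low dose (median 0.66) and 10 of 10 at the high dose (median 1.09). Of 11 monocyte genes 8, 4 and 8 rose, and 1, 1 and 0 fell. Of the 12588 genes tested, 2833, 3300 and 3694 were called higher in these comparisons. Of 5 endothelial genes tested, Esam (0.40 ± 0.08) and Pecam1 (0.24 ± 0.07), which platelets also carry, rose at the high against the low dose after exposure. In that comparison 6.04% of all genes were called higher. The part of leukocyte or endothelial RNA in the members' results was not tested.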

How the data were processed

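The authors deposited log2 values of 45101 probe sets on 72 whole-blood arrays, made with RMA (robust multi-array averaging) per the submitters' processing notes. For the RMA software and its settings, details were not given in the sources used here. RNA of stabilised blood was extracted, depleted of globin transcripts and amplified before hybridisation, per the labels' protocols. Probe sets were named through platform annotation: 34945 had 1 gene symbol, 932 had several and were not used, and 64 were controls. Sample titles gave the groups and replicate numbers. Arrays of 1 group come from different mice, per the labels. The number of arrays limits the precision.

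Without further normalization, limma 3.58.1 in R 4.3.3 was used to fit 6 group means over all 72 arrays (66 residual degrees of freedom, empirical Bayes moderation), after the filter described above and with 1 probe set per gene, that of the highest mean. Benjamini-Hochberg adjustment ran over 12588 genes in each of 11 comparisons, with a threshold of 0.05. The fit was tested on simulated data. Errors of differences are SE. Correlations used group-centred values and permutations within groups, in Python 3.11.15 with numpy 2.4.6. Named genes were the 5 members, for each member the 5 named genes of highest correlation, and up to 4 genes of smallest p per list and comparison. The marker levels of Alas2, Slc4a1 and Pf4 were added after their values were seen. Members and lists were chosen with earlier results of these data known. Alternatives were other scalings, filters and probe sets, array weights, fewer groups in the fit, covariates (list means, 18S, 3′ to 5′ difference, hybridisation controls), the replicate number as a block, and each array left out. Promoter windows came from RefSeq (GRCm38.p6), and no genome was used.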

Additional observations from a re-analysis of the deposited data

How the results depend on the processing

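Of 726 recomputed values of single members, 662 kept their direction and side of the threshold, 5 that passed in 1 of the 2 fits changed sign and 21 that passed in neither did. All 5 reversals came with the erythroid mean as covariate: Car2 for high dose against control after recovery (-0.34, adjusted p = 0.034), and for recovery against exposure Car2 in controls (0.12), Aqp1 (0.015) and Rhag (0.14) at the low dose, and Rhag at the high dose (0.089). With that covariate the members called between collections numbered 2 in controls, 2 at the low dose and 1 at the high dose, and with the 3′ to 5′ difference 2 at each dose of lead. For high dose against control after recovery the count of 2 became 0 with centred arrays, the 3′ to 5′ difference, the platelet mean or the replicate block, and 1 with no filter, only the compared groups or hybridisation controls. For high against low dose after exposure it became 0 with the platelet mean, and 3 with array weights (Rhag) or with the erythroid mean (Car2, lower). For low dose against control after exposure it became 2 with array weights. The low-dose interaction gave 1 call with quantile normalization, the erythroid mean or the replicate block, and 2 with array weights. With 1 array left out, the counts ran from 0 to 2 for high dose against control after recovery, 2 to 3 for high against low dose after exposure, 0 to 1 for the low-dose interaction, 4 to 5 for recovery in controls and 3 to 4 at the high dose, and did not change in the other comparisons. The cause of these changes was not tested.

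Correlations between arrays did not show that replicate numbers pair them, and low correlations cannot show that the numbers do not mark mice. Same-numbered recovery and exposure arrays correlated above 0.1 in 3 of 7 control, 7 of 15 low-dose and 4 of 13 high-dose pairs, and the own number was best for 1, 3 and 0. The highest median was that of high-dose and control recovery arrays (0.196, against 0.000971 for other numbers), where 4 of 7 pairs exceeded 0.1 and the own number was best for 3. For high- and low-dose exposure arrays the median was 0.124, against -0.00228 for other numbers. There 8 of 15 pairs exceeded 0.1 and the own number was best for 4. With the replicate block, Aqp1 (0.46, adjusted p = 0.163) and Mfsd2b (0.52, adjusted p = 0.0945) were not called against control after recovery and the low-dose interaction of Mfsd2b was (0.66, adjusted p = 0.0393), with no other call of a member changed.

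The counts over all genes moved more. For high dose against control after recovery 54 genes became 6 with centred arrays, 1 with the platelet mean, 3 with the replicate block and 426 with array weights. For high dose against control after exposure 3 became 75 with quantile normalization. For low dose against control after exposure 164 became 53 with the platelet mean and 1406 with array weights, and for high against low dose after exposure 2349 became 697 with hybridisation controls. For high against low dose after recovery 0 became 95 with array weights. With array weights the low-dose interaction gave 716 genes, against 3, and the high-dose one 6, against 1. Recovery in controls gave 3004 genes with the erythroid mean, against 4543, and in low-dose mice 3399, against 5551. The share of calls that were higher was 44% with quantile normalization, against 32.4%, between doses after exposure, 73.9%, against 85.4%, for low dose against control, 50.1%, against 62.4%, for recovery in controls, 48%, against 59.7%, for recovery at the high dose, 40%, against 100%, for high dose against control after exposure and 56.4%, against 66.7%, for the low-dose interaction. For high dose against control after recovery it was 83.3% with centred arrays, 57.3% with array weights and 66.7% with the replicate block, against 94.4%. With 1 array left out, the 54 genes of that comparison ran from 2 to 170 and the 164 of low dose against control after exposure from 35 to 329.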
